A study of Mus musculus with 6 samples.

Results

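Proteasome subunit genes of mouse muscle stem cells (MuSCs) are described here. They were taken as the protein-coding genes whose symbols begin with Psma, Psmb, Psmc, Psmd, Psme or Psmf followed by a number, and whose mean over the 6 libraries was at least 5. The symbol rule matched 44 genes and 43 of them reached that mean, out of 22706 genes in the deposited table and 15915 with a mean of at least 5. Psme2b was the exception, with 5 and 5 in the control libraries, 9 and 8 in mdx and 0 and 2 in the third group. RNA had been sequenced from MuSCs sorted by flow cytometry in 3 groups of 2 libraries, each library labelled C57BL/6. The control group was wild type. The mdx group carried the mdx allele and so lacked functional dystrophin. The third group carried the mdx allele as well as Sirt6-mKO, a deletion of Sirt6 driven by Cre from the Pax7 locus, which acts in the muscle lineage. No treatment, time or age is given in the labels. The study states 2 biological replicates for its RNA-seq, and the labels do not say whether each came from a separate animal, so p-values measure the spread between these libraries.

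The proteasome degrades proteins that carry ubiquitin chains. Its barrel, the 20S core, has outer rings of alpha subunits (Psma genes) and inner rings of beta subunits (Psmb genes), and the protease sites lie in Psmb5, Psmb6 and Psmb7. The 19S regulator caps the barrel, with a ring of ATPases that unfold the substrate (Psmc genes) and non-ATPase subunits that bind, deubiquitinate and position it (Psmd genes). In cells exposed to interferon, Psmb8, Psmb9 and Psmb10 can replace the 3 constitutive protease subunits, and Psme1 and Psme2 form an alternative cap. Together these 5 are called immunoproteasome genes. Skeletal muscle uses the ubiquitin-proteasome route to break down myofibrillar proteins.

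The values are normalized read counts, that is read counts divided by a size factor for each library. The approximate number of reads was between 4397632 and 9745218 per library, and 1 read was worth between 0.655 and 1.86 units. The 43 genes together summed to 10090 and 11599 (control), 17584 and 14951 (mdx) and 11742 and 13399 (the third group). Sirt6 itself had 41 and 32 (control), 33 and 40 (mdx) and 37 and 30 (labelled Sirt6mKO/mdx), so this gene did not separate the third group. Reads from exons outside the deleted exons would also count toward it, and their part in these values was not tested. The level of Sirt6 checks the label only in part. Xist was at 16772 and 12950 (control), 7 and 8 (mdx) and 33 and 34 (the third group), and the Y-linked Ddx3y was at 3 and 8, 1024 and 1055, and 1555 and 1767. Sex and genotype therefore cannot be told apart in either comparison with control. The summed MuSC markers were between 17002 and 23273 in every library, with Pax7 between 2167 and 3236. Of these 9 markers 0 were higher and 2 were lower in mdx than in control, Sdc4 at 7692 and 6224 (control), 1100 and 1049 (mdx) and 2753 and 2822 (the third group), and Chrdl2 at 684 and 728, 136 and 137, and 354 and 160. The summed leukocyte markers were between 111 and 276. Among markers of other cells, the fibro-adipogenic sum was 17468 and 24115 (control), 33178 and 27825 (mdx) and 17799 and 25919 (the third group). Most of it was Col3a1, which did not pass in mdx (limma, adjusted p = 0.535), and of the 4 markers 1, Ly6a, was higher in mdx, at 3 and 9, 79 and 21, and 65 and 15. The myofibre sum was 5029 and 6103, 2930 and 991, and 6538 and 3193. The endothelial sum was 228 and 127, 29 and 57, and 107 and 166. Both were lowest in mdx, where 3 of 5 myofibre and 2 of 4 endothelial markers were lower than in control. By the same test, 8.17% of all genes tested were higher in mdx than in control and 8.48% were lower. The erythroid sum was 11 and 10, 4 and 5, and 33 and 74, highest in the third group, and Hbb-bs, the 1 erythroid gene tested, was higher there than in mdx, at a log2 fold change of 3.39 (limma, adjusted p = 0.031). The part of these cells in the proteasome values was not tested.

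The upstream stretches of 4 of these genes are shown as examples. Psmd14, Psmc6 and Psma1 passed the test in mdx against control, and Psmc1 had the lowest fold change in the third group against mdx. RefSeq promoter sequences were found for 37 of the 43 genes. Each stretch holds the 120 bases before the gene start that RefSeq gives in GRCm38.p6, read 5′ to 3′ on the gene's strand. The deposited table places the starts of Psma1 and Psmc1 slightly further upstream, so the last bases of their stretches lie inside the gene as that table bounds it. Capitals mark matches, on either strand, to any of the 4 motifs reported here, and Psmc1 holds none in these bases.
Psmd14, chr2:61711574-61711693, plus strand: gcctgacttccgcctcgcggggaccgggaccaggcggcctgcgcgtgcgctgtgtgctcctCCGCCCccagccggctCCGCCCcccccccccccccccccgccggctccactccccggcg
Psmc6, chr14:45329704-45329823, plus strand: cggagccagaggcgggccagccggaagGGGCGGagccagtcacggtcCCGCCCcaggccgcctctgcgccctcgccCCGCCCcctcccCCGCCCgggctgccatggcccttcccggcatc
Psma1, chr7:114276117-114276236, minus strand: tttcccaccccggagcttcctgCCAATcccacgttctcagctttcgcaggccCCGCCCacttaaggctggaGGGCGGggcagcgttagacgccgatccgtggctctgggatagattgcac
Psmc1, chr12:100110082-100110201, plus strand: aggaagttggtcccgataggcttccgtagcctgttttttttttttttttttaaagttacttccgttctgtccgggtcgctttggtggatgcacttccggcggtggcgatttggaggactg

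The motifs were searched on both strands from 250 bases before to 50 bases after the gene start. GGGCGG, the core of the box that Sp factors bind, was found in 22 of the 37 promoters (59.5%) and in 38.2% of the promoters of all 27025 genes in the RefSeq promoter set. TGACNNNGC, the core of the antioxidant response element bound by NRF1 and NRF2, was found in 6 (16.2%), against 14% of all promoters. CCAAT was found in 14 (37.8%), against 41.1%. GAAANNGAAA, written after the interferon-stimulated response element, was found in 4 (10.8%), against 3.99%, and these 4 were Psmb3, Psmd4, Psmd9 and Psme1. Psmc1 matched CCAAT at -175, outside the printed bases. Of the other genes that passed as lower in the third group against mdx, Psmd1 and Psmd12 matched GGGCGG and Psmc2 did not. These are matches of letters and no binding was measured. A link between a motif and the direction of change was not tested.

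Read counts were divided by exon length to order the genes by level. Per kilobase of annotated exon, the highest mean level over the 6 libraries was that of Psma6, an alpha ring subunit, at 336.6, followed by the ATPase gene Psmc3 at 269.9 and the beta subunit gene Psmb4 at 223. The lowest levels were those of Psmb11, the thymus form of the protease subunit, at 3.44, Psmb9 at 8.79, Psmb8 at 13.9 and Psmf1, an inhibitor gene, at 16.3. Divided by the longest coding transcript in place of all exons, Psmb6 came first at 433.4 and Psma6 second at 398.6, and Psmb11 and Psmb9 kept the lowest levels at 3.89 and 23.8. The order therefore depends on the length used, at the top of the list too. It also differed between groups, since per kilobase of exon Psmc3 was above Psma6 in the mdx mean, at 412.4 against 393, and below it in the control mean, at 150.4 against 235.8, and the libraries of these 2 genes overlapped in mdx.

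**Figure D1:**
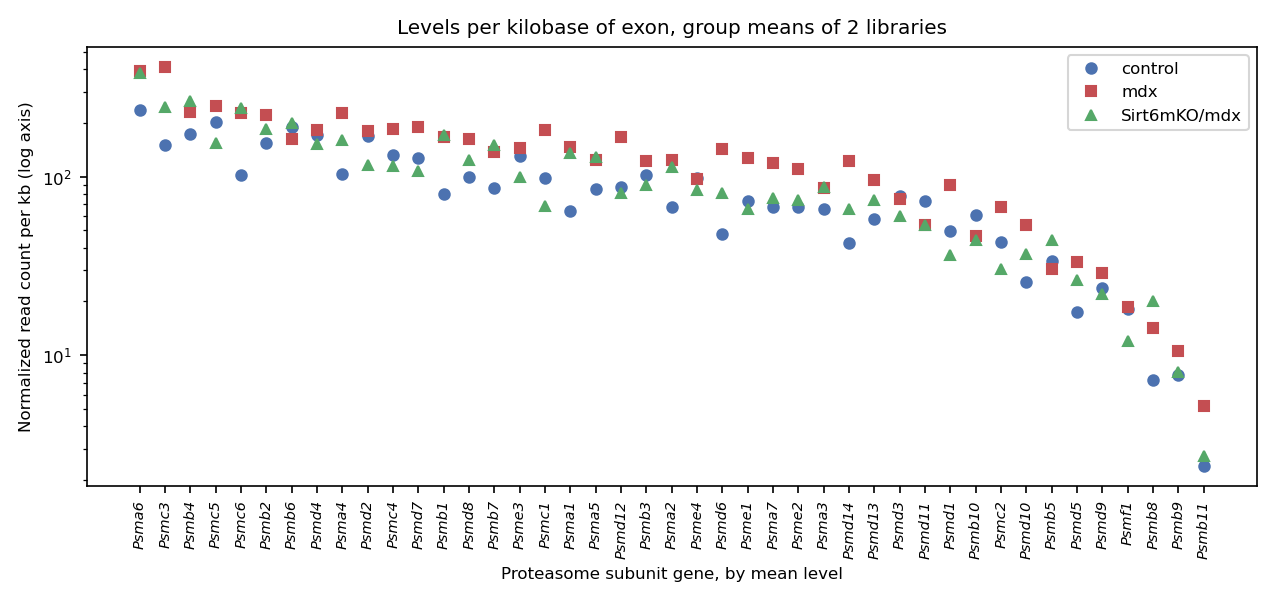
Mean normalized read count per kilobase of annotated exon (log axis) for the 43 proteasome genes, ordered by their mean over the 6 libraries, with each marker the mean of the 2 libraries of a group. Over the 6 libraries Psma6 is highest at 336.6 and Psmb11 lowest at 3.44, while in mdx the mean of Psmc3 is above that of Psma6.

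Several of these genes have near copies elsewhere in the genome. For 8 of them, Psma4, Psma5, Psmb3, Psmb5, Psmc1, Psmd2, Psmd11 and Psme2, over 50% of the longest coding transcript had a copy of at least 95% identity in other genes. The share was 98.2% for Psmd2, 88.4% for Psmb5 and 82.0% for Psmc1. Reads that aligned to several places had been left out by the authors, so the values of these 8 genes are uncertain. In Psmd9, Psmb8, Psmb5, Psmb7 and Psmd13, over 10% of exon bases overlapped another gene, up to 25.5% in Psmd9.

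The first comparison asks how proteasome genes differ between MuSCs of mdx and control mice. A gene passed when its adjusted p was at most 0.05 in limma with Benjamini-Hochberg adjustment over all 15915 genes tested. Of the 43 genes, 10 were higher in mdx and 0 were lower, and they came from both parts of the complex. The 19S regulator gave the lid subunits Psmd6, Psmd12 and Psmd14, the base scaffold Psmd1 and the ATPases Psmc3 and Psmc6. The 20S core gave the alpha subunits Psma1 and Psma4 and the beta subunit Psmb1, and the remaining gene was the 19S assembly chaperone Psmd5.

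Psmd6, a lid subunit, had normalized read counts of 121 and 147 (control), 406 and 394 (mdx) and 173 and 279 (the third group). Psmd14, the deubiquitinase of the lid, had 125 and 116, 341 and 351, and 156 and 218. Psmc3, an ATPase that binds ubiquitin chains, had 308 and 476, 1142 and 1008, and 548 and 739. In these 3 genes both mdx libraries were above each of the other 4, with no overlap. The log2 fold change in mdx was 1.58 ± 0.29 (SE) for Psmd6 (limma, adjusted p = 0.0020), 1.51 ± 0.28 for Psmd14 (adjusted p = 0.0020) and 1.48 ± 0.27 for Psmc3 (adjusted p = 0.0018). They passed without any one of the 6 libraries. With one prior variance for all genes in limma, 0 of the 10 genes passed, and the adjusted p of these 3 was between 0.061 and 0.079.

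Psma1, an alpha ring subunit, had 189 and 191 (control), 478 and 393 (mdx) and 356 and 445 (the third group). Psmc6, an ATPase, had 400 and 318, 770 and 825, and 751 and 949. Here the mdx libraries and those of the third group overlapped, and both were above control. The log2 fold change in mdx against control was 1.19 ± 0.26 (SE) for Psma1 (limma, adjusted p = 0.0056) and 1.16 ± 0.25 for Psmc6 (adjusted p = 0.0053). Psma1 did not pass without mdx replicate 1 (adjusted p = 0.0885), nor did Psmc6 without mdx replicate 2 (adjusted p = 0.0522).

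The other 5 genes that passed had log2 fold changes between 0.93 and 1.11. Psma4 had 272 and 222 (control), 614 and 459 (mdx) and 342 and 423 (the third group). Psmb1 had 373 and 361, 926 and 616, and 710 and 856. Psmd5 had 107 and 147, 245 and 236, and 175 and 209. All 3 had both mdx libraries above both control libraries. Psmd1 and Psmd12, whose values are given with the second comparison, also had no overlap with control. Psma4 did not pass without mdx replicate 1 (0.90) or control replicate 2 (0.96), and Psmb1 did not pass without mdx replicate 1 (0.75) or control replicate 1 (1.06). Psmd1, Psmd5 and Psmd12 passed without control replicate 2 but not without any other single library, and without control replicate 1 their log2 fold changes were 0.48, 0.71 and 0.54.

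Over all 43 genes the median log2 fold change in mdx was 0.67, beside 0.00 over all genes tested, and 37 of the 43 were above 0. The 10 genes higher compare with 8.17% of all genes tested that were higher in mdx and 8.48% that were lower. With a 2-fold minimum added, 7 of the 43 passed, beside 14.2% of all genes in either direction. At an unadjusted p under 0.05 there were 22 genes, all higher, beside 31.0% of all genes in either direction. The libraries did not overlap in 28 genes higher in mdx and in 1 lower, beside 28.7% and 28.3% of all genes. The lower one was Psmd11, a lid subunit, at 408 and 527 (control) and 348 and 341 (mdx). Leaving out mdx replicate 1 reduced the higher genes to 4, and leaving out mdx replicate 2 reduced them to 6.

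The 33 genes that did not pass ranged from Psmd11 at -0.43 to Psmd10, a 19S assembly chaperone, at 1.08 (limma, adjusted p = 0.110). Psmd10 was at 48 and 28, 85 and 73, and 48 and 60, and Psmb11 at 15 and 8, 8 and 42, and 19 and 7, so its libraries differed more within groups than between them. Of the protease subunits of the core, Psmb5 had 26 and 35, 39 and 16, and 42 and 37, Psmb6 had 423 and 290, 341 and 271, and 348 and 402, and Psmb7 had 282 and 307, 578 and 367, and 450 and 583. Psmb7 was the one of these whose mdx libraries were both above control.

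By class, the median log2 fold change in mdx was 0.81 for the 7 alpha ring genes, of which 2 passed, and 0.42 for the 7 constitutive beta ring genes, of which 1 passed. It was 0.81 for the 6 ATPases, with 2 passing, and 0.71 for the 11 non-ATPase genes of the 19S regulator, with 4 passing. The 3 assembly chaperones had a median of 0.93. The genes of other activators and the inhibitor, Psme3, Psme4 and Psmf1, had a median of 0.02, and none passed. Psme4, the single-chain activator, was at 838 and 803 (control), 899 and 725 (mdx) and 717 and 694 (the third group).

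**Figure D2:**
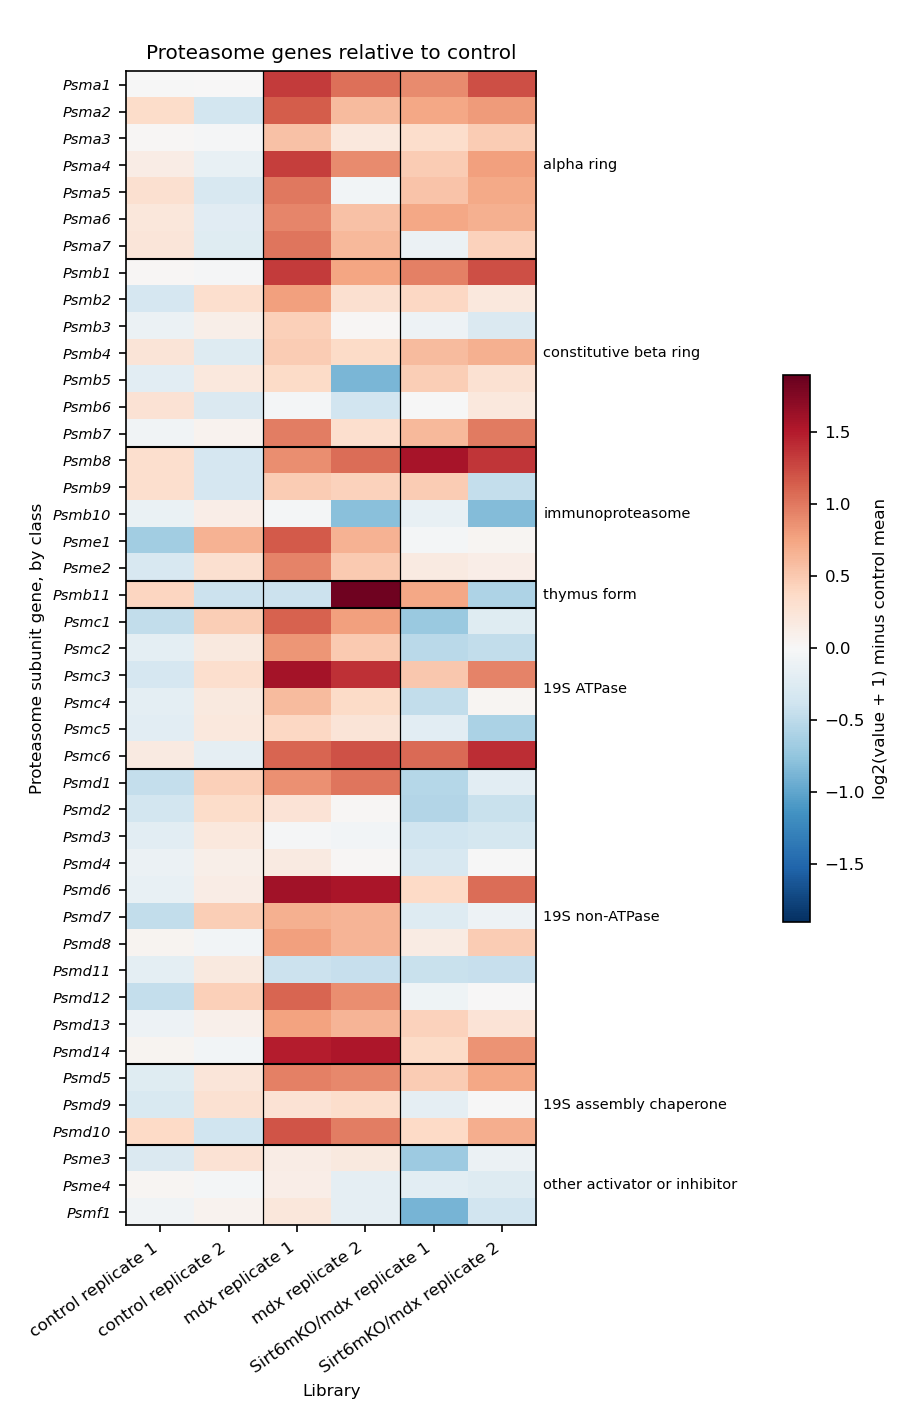
Difference of log2(value + 1) from the control mean (colour) for each of the 43 proteasome genes (rows, by class) in each of the 6 libraries (columns). Red is above and blue below the control mean; 37 of 43 genes had a log2 fold change above 0 in mdx, and 25 in the third group.

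The 5 immunoproteasome genes were not among those that passed in mdx. Psmb8 was at 30 and 19 (control), 45 and 51 (mdx) and 73 and 63 (the third group). Both mdx libraries were above control and both of the third group were above mdx. Its log2 fold change was 0.97 ± 0.47 (SE) in mdx against control (limma, adjusted p = 0.177) and 1.47 ± 0.47 in the third group against control (adjusted p = 0.0675). Psmb9 was at 35 and 22, 39 and 38, and 39 and 20. Its log2 fold change in mdx was 0.46 ± 0.56 (adjusted p = 0.619). Psmb10 was at 94 and 113, 100 and 59, and 93 and 58, with a log2 fold change of -0.42 ± 0.40 in mdx (adjusted p = 0.513).

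Psme1 was at 92 and 230 (control), 329 and 231 (mdx) and 142 and 149 (the third group). The control libraries were far apart, and the log2 fold change in mdx was 0.92 ± 0.37 (limma, adjusted p = 0.109). Its value rests on which control library is used, since it was 1.57 without control replicate 2 (adjusted p = 0.0117) and 0.26 without control replicate 1 (adjusted p = 0.666). Psme2 was at 94 and 145, 225 and 165, and 132 and 128, with a log2 fold change of 0.72 ± 0.32 (adjusted p = 0.144). Leukocytes carry immunoproteasomes, and the study depleted cells with CD45, CD31 or Sca1, which mark leukocytes, endothelial cells and fibro-adipogenic cells, before the sort. The summed leukocyte markers were 146 and 197 (control), 153 and 111 (mdx) and 276 and 248 (the third group). Of 10 markers 8 were in the table and 7 were tested. In mdx against control Lyz2 was higher, at 0 and 14 (control), 47 and 26 (mdx) and 39 and 67 (the third group), and Cd68 was lower, at 86 and 88, 30 and 26, and 107 and 56. Ptprc, which defines leukocytes, was at 0 and 0, 5 and 3, and 3 and 19. The part of these cells in the immunoproteasome values was not tested. In such bulk samples, fewer cells of a type and less RNA per cell cannot be told apart.

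Psmb8, Psmb9 and Psmb10 were also set beside the genes they replace, and Psme1 beside its partner Psme2, as log2 ratios per kilobase of exon. Psmb8 to Psmb5 was -1.70 and -2.79 (control), -1.70 and -0.24 (mdx) and -1.11 and -1.14 (the third group). Psmb9 to Psmb6 was -4.56 and -4.69, -4.10 and -3.80, and -4.12 and -5.30. Psmb10 to Psmb7 was -0.58 and -0.44, -1.53 and -1.63, and -1.27 and -2.32. Only for Psmb10 to Psmb7 did both mdx libraries lie outside the control range and the third group lie on the same side. Psme1 to Psme2 was -0.36 and 0.34, 0.22 and 0.16, and -0.22 and -0.11. Per kilobase of the longest coding transcript the ratios shift by a constant, by 1.05 for Psmb8 to Psmb5 and by -1.18 for Psmb10 to Psmb7, so the level of a ratio depends on the length used and the differences between libraries do not. With 2 libraries per group no test of a ratio was made.

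The second comparison asks what differs when Sirt6-mKO is added to mdx. Against mdx, 0 of the 43 genes were higher and 4 were lower in the third group, and all 4 encode subunits of the 19S regulator. They were the ATPases Psmc1 and Psmc2, the scaffold Psmd1 and the lid subunit Psmd12. None of the 14 genes of the 20S core passed.

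Psmc1 had normalized read counts of 130 and 252 (control), 393 and 311 (mdx) and 111 and 155 (the third group). Psmc2 had 187 and 244, 382 and 302, and 150 and 155. Psmd1 had 248 and 470, 622 and 689, and 234 and 298. Both libraries of the third group were below both mdx libraries in each. Psmd12 had 162 and 302, 475 and 407, and 210 and 222, with the same order against mdx.

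The log2 fold change against mdx was -1.41 ± 0.33 (SE) for Psmc1 (limma, adjusted p = 0.0175) and -1.31 ± 0.30 for Psmd1 (adjusted p = 0.0142). It was -1.15 ± 0.28 for Psmc2 (adjusted p = 0.0184) and -1.02 ± 0.30 for Psmd12 (adjusted p = 0.0462). In mdx against control, Psmd12 had 0.99 ± 0.30 (adjusted p = 0.0356) and Psmd1 0.94 ± 0.30 (adjusted p = 0.0435), and both comparisons share the mdx libraries. The 4 calls rest on each library: 0 genes passed when any one of the 4 libraries of mdx and the third group was left out. Leaving out control replicate 1 gave 7, and one prior variance for all genes gave 0.

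**Figure D3:**
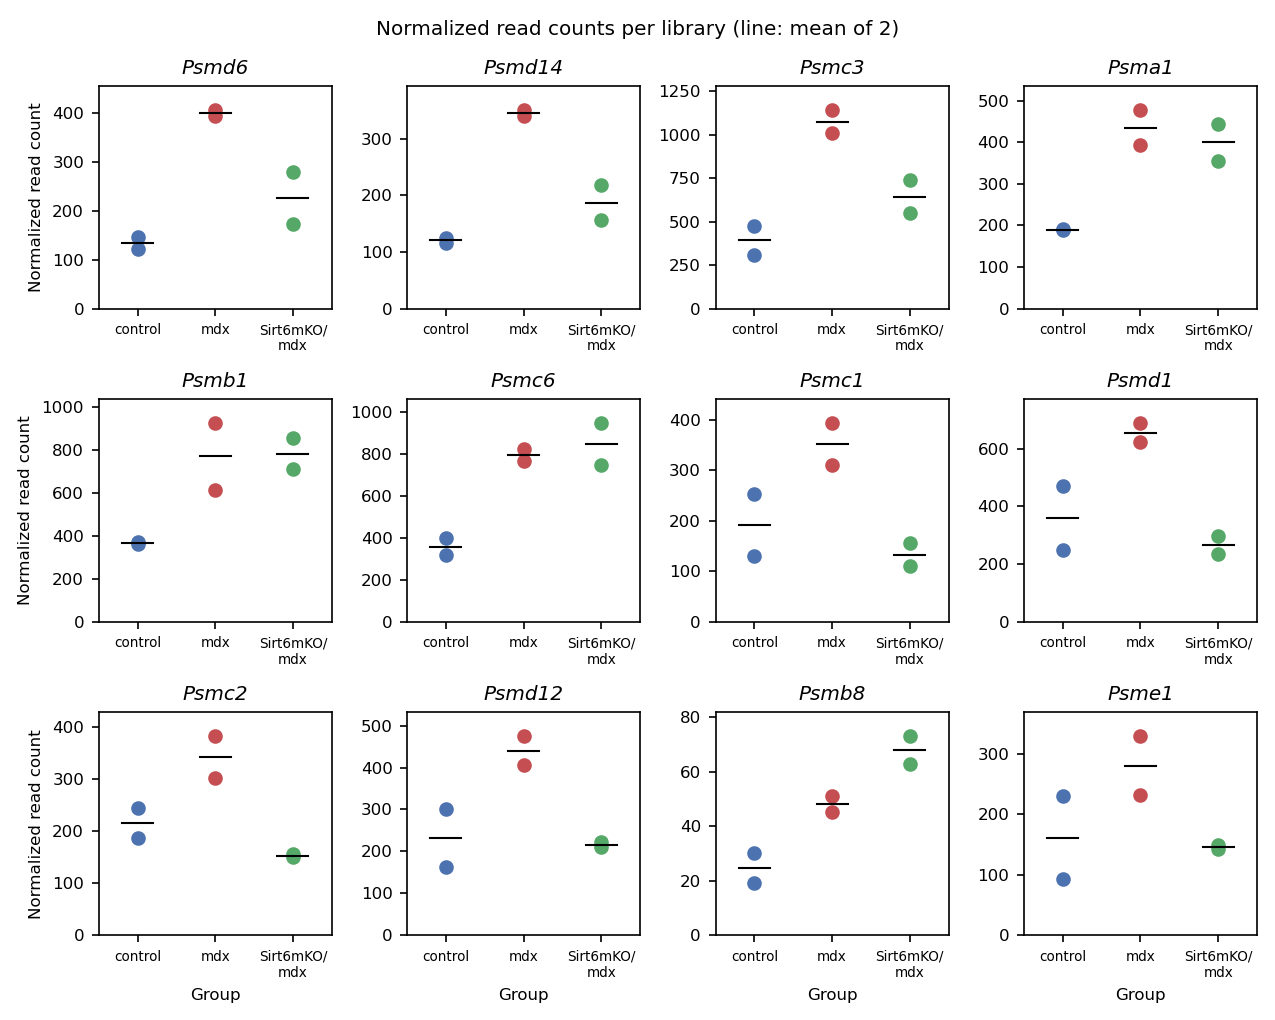
Normalized read count of 12 proteasome genes in each of the 6 libraries (points; the line is the mean of 2), by group. Psmd6, Psmd14 and Psmc3 are highest in the mdx libraries, Psma1, Psmb1 and Psmc6 are higher in mdx and in the third group than in control, and Psmc1, Psmd1, Psmc2 and Psmd12 are lower in the third group than in mdx.

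The 4 genes lower compare with 3.21% of all genes tested that were lower and 5.94% that were higher. All 4 also had a 2-fold change, beside 8.17% of all genes in either direction. At an unadjusted p under 0.05 there were 13 genes, all lower, beside 25.2% of all genes. The libraries did not overlap in 3 genes higher and 26 lower, beside 28.8% and 27.2%. The median log2 fold change over the 43 genes was -0.39, beside 0.02 over all genes. With each library rescaled to the same total of values, 24 genes were lower in place of 4. The median of all genes then moved to -0.58, and relative to it the median of the 43 was -0.44, beside -0.42 in the authors' scaling. The 10 highest genes held 32.6% and 30.0% of the total in the third group, and between 11.7% and 22.9% in the other libraries. The part of these genes in the shift was not tested.

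The 5 immunoproteasome genes did not pass in this comparison. The log2 fold change was -0.92 for Psme1 (limma, adjusted p = 0.141), -0.56 for Psme2 (adjusted p = 0.294), -0.45 for Psmb9 (adjusted p = 0.666), -0.06 for Psmb10 (adjusted p = 0.943) and 0.49 for Psmb8 (adjusted p = 0.561). Psme1 passed without control replicate 1 at -0.92 (adjusted p = 0.0479). With the same total in each library, Psme1 at -1.54 (adjusted p = 0.0126) and Psme2 at -1.19 (adjusted p = 0.0256) passed, in the scaling that moved the median of all genes to -0.58.

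The third comparison sets the libraries labelled Sirt6mKO/mdx against control. Of the 43 genes, 3 were higher and 0 were lower. They were Psmc6, at a log2 fold change of 1.24 ± 0.25 (SE) (limma, adjusted p = 0.0062), Psmb1, at 1.09 ± 0.26 (adjusted p = 0.0179), and Psma1, at 1.06 ± 0.26 (adjusted p = 0.0184). These 3 were also higher in mdx against control, which shares the control libraries. The count was 0 without control replicate 2 or without replicate 2 of the third group, and 1 without replicate 1 of the third group. Psmb1 also did not pass without control replicate 1 (adjusted p = 0.0502), and 0 genes passed with one prior variance for all genes.

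The background was 5.62% of all genes higher and 3.29% lower, and 7.87% with the 2-fold minimum in either direction. At an unadjusted p under 0.05 there were 12 of the 43, all higher, beside 24.1% of all genes. The libraries did not overlap in 18 genes higher and 7 lower, beside 26.3% and 25.3%. The median log2 fold change was 0.15, beside 0.01 over all genes. With the same total in each library, 0 genes were higher and 8 were lower in place of 3 and 0. The median of all genes was then -0.58 and that of the 43 was -0.45, which is 0.13 above it, beside 0.15 above in the authors' scaling. Among immunoproteasome genes other than Psmb8, the log2 fold changes were 0.15 for Psme2 (limma, adjusted p = 0.824), 0.01 for Psmb9 (adjusted p = 0.997), -0.00 for Psme1 (adjusted p = 1.0) and -0.48 for Psmb10 (adjusted p = 0.499).

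**Figure D4:**
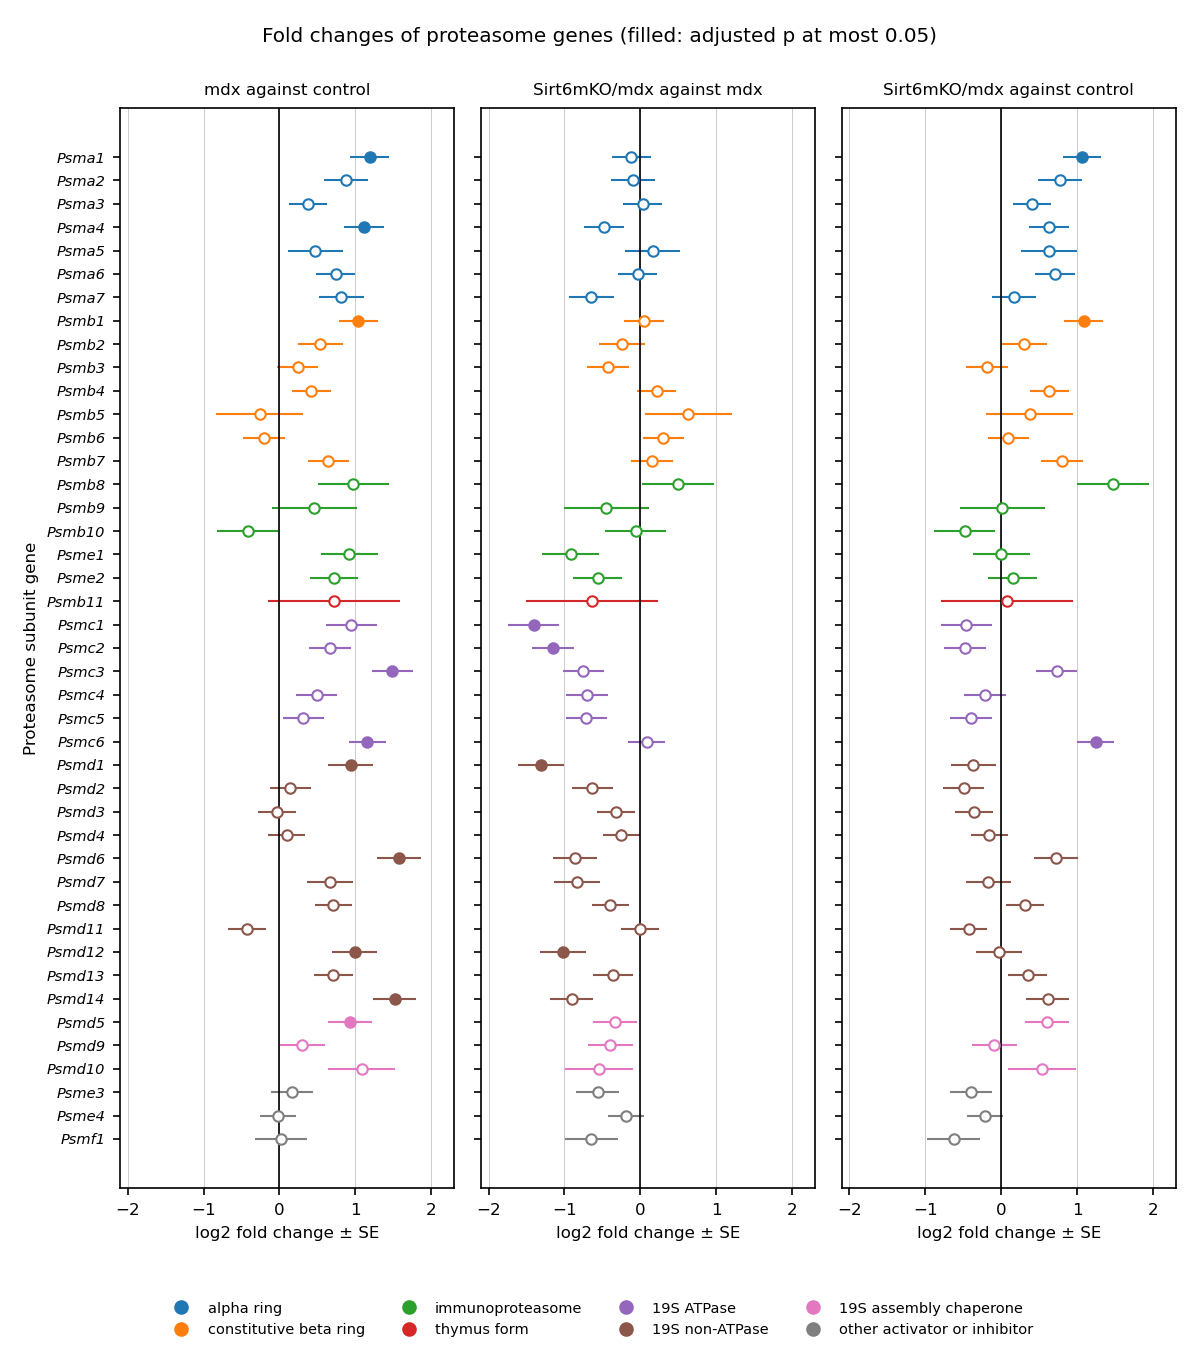
Log2 fold change ± SE of the 43 proteasome genes in the 3 comparisons, coloured by class, with filled points for an adjusted p of at most 0.05 (limma, Benjamini-Hochberg). There are 10 filled points in mdx against control, 4 in Sirt6mKO/mdx against mdx and 3 in Sirt6mKO/mdx against control.

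The third group is given by class as a description, since the difference between classes was not tested. The 14 genes of the 20S core had a median log2 fold change of -0.00 against mdx and 0.63 against control. The 17 subunit genes of the 19S regulator had -0.71 against mdx and -0.17 against control. Against mdx, 15 of the 17 regulator genes had both libraries of the third group below both mdx libraries, and 3 of the 14 core genes did, beside 27.2% of all genes tested. Adrm1 and Shfm1 also encode 19S subunits but fall outside the symbol rule, so neither is among the 17. Adrm1 was at 58 and 56 (mdx) and 77 and 97 (the third group), a log2 fold change of 0.59. Shfm1 had a log2 fold change of 0.14 against mdx with overlapping libraries, and neither gene passed. Within the ATPase ring, the log2 fold change of the third group against mdx was above 0 in 1 of 6 genes, Psmc6, and its range there, 751 and 949, overlapped that of mdx.

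The mean log2 level of the 14 core genes minus that of the 17 regulator genes was taken within each library, a measure that another scaling of a library hardly moves. It was chosen after the values were seen and carries no p. It was -0.14 and -0.72 (control), -0.36 and -0.77 (mdx) and 0.12 and 0.04 (the third group). The group means were -0.43 ± 0.40 (SD, n = 2), -0.56 ± 0.29 and 0.08 ± 0.06, and both libraries of the third group were above the other 4. Without the 8 genes that have near copies, it was 0.27 and -0.29, -0.01 and -0.33, and 0.49 and 0.44.

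The core and the regulator also differ in transcript length. The longest coding transcripts had a median of 1162.5 bases in the core and 1819 bases in the regulator. Among genes that are no proteasome genes, 305 with lengths between 934.75 and 1229.5 bases less 1040 with lengths between 1581 and 2148 bases gave -0.10 and -0.15 (control), 0.05 and -0.09 (mdx) and 0.10 and 0.13 (the third group), as the difference of median deviations from each gene's mean over all libraries. The proteasome genes gave 0.16 and -0.41, -0.05 and -0.46, and 0.43 and 0.34 on that scale. The 2 sets of values had the same sign in 4 of the 6 libraries and opposite signs in replicate 1 of control and of mdx. The part of length in the difference between core and regulator was not tested.

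**Figure D5:**
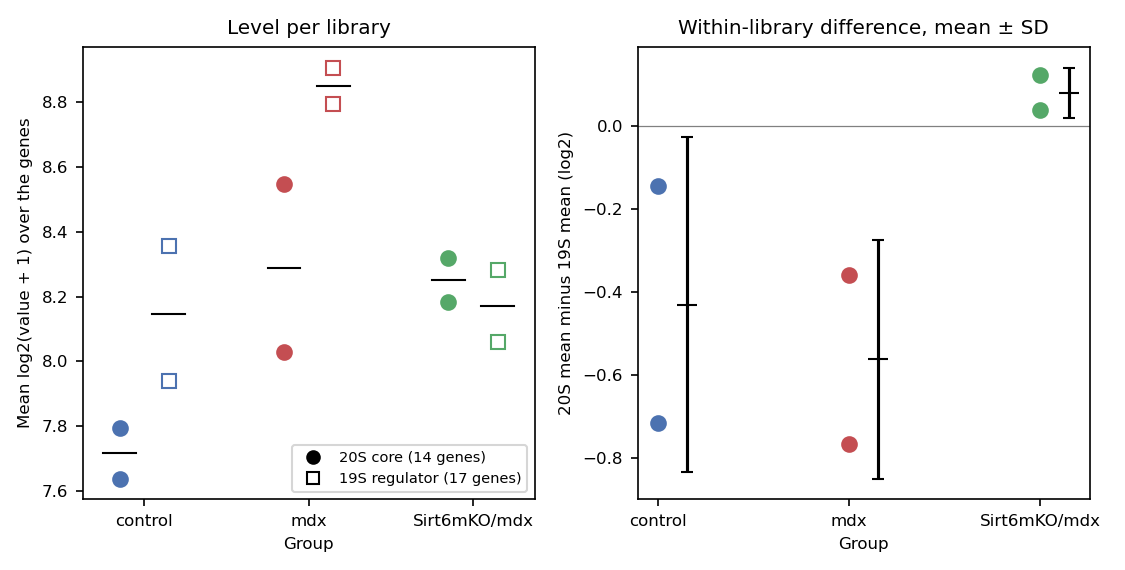
Mean log2(value + 1) over the 14 genes of the 20S core and the 17 of the 19S regulator in each library (left), and their difference in each library with the group mean ± SD (right). The difference is 0.12 and 0.04 in the third group and between -0.77 and -0.14 in the other 4 libraries.

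Other genes of the pathway are given by list. Of 16 genes for core assembly and proteasome cofactors found in the table, 1 was higher and 2 were lower in mdx, beside 8.17% and 8.48% of all genes tested. Shfm1, which encodes the small 19S subunit Sem1, was at 269 and 196 (control), 658 and 530 (mdx) and 724 and 588 (the third group). Its log2 fold change was 1.36 in mdx (limma, adjusted p = 0.003) and 1.5 in the third group against control (adjusted p = 0.002). Ubqln1, a ubiquitin shuttle, was at 1622 and 1161, 450 and 501, and 729 and 879, at -1.53 in mdx (adjusted p = 0.001), and Psmg3, a core assembly chaperone, was at -1.75 (adjusted p = 0.013). Ubqln2 was the gene lower in the third group against mdx, at -1.16 (adjusted p = 0.032).

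Of 9 genes of the route by which NRF1 (Nfe2l1) drives proteasome genes, 0 were higher and 3 were lower in mdx, beside 8.17% and 8.48% of all genes tested, and the 3 encode small Maf partners. Maff was at 1799 and 1961 (control), 109 and 98 (mdx) and 1153 and 1156 (the third group). Mafk was at 2230 and 2293, 215 and 239, and 1670 and 1353. Both were higher again in the third group against mdx, at log2 fold changes of 3.47 and 2.72, and Vcp, the segregase that extracts NRF1 from the membrane, was lower at -1.10 (limma, adjusted p = 0.027). Nfe2l1 was at 536 and 780, 551 and 521, and 410 and 346, with a log2 fold change of -0.27 in mdx (adjusted p = 0.513).

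Ubb, a ubiquitin gene, was at 3156 and 5134 (control), 717 and 412 (mdx) and 994 and 976 (the third group). It was lower in mdx, at a log2 fold change of -2.89. Of 10 interferon and MHC class I genes, 2 were higher in mdx, B2m at 1.08 (limma, adjusted p = 0.027) and Ifngr2 at 1.51 (adjusted p = 0.017), and 1 was lower, Irf1 at -1.95, beside 8.17% and 8.48% of all genes tested. In the third group against mdx Irf1 was higher at 1.67. Tap1, a peptide transporter next to Psmb8 and Psmb9 in the genome, was at 121 and 105, 143 and 139, and 152 and 106.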

How the data were processed

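RNA of sorted MuSCs was measured in 6 libraries of 3 groups (control, mdx, Sirt6mKO/mdx). Per the labels and the study's methods, ribosomal RNA was depleted, sequencing used an Ion Torrent instrument, and reads were aligned with STAR to GRCm38 and counted per gene with featureCounts 1.4.5-p1, leaving out reads on several genes or places. Strand use is not given in the sources used here, so values of overlapping genes are uncertain. The deposited values are whole numbers that the authors had divided by DESeq2 size factors and rounded, so they were treated as a score, here called a normalized read count. Size factors between 0.537 and 1.53 were recovered from the pattern of skipped numbers, which gave the approximate reads.

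DESeq2, the authors' test, needs raw counts. limma 3.58.1 in R 4.3.3 was therefore fitted to log2(value + 1) over the 6 libraries together, with a mean-dependent (trend) prior variance, two-sided, with Benjamini-Hochberg adjustment over 15915 genes with a mean of at least 5. Fold changes on this scale understate those of low genes. Named genes were the 5 highest and 5 lowest members that passed per comparison, the 5 immunoproteasome genes, and up to 3 per pathway list in each direction. Members and lists were chosen with earlier results of these data known. The other members given with values, the promoter motifs and the core to regulator difference were chosen after values were seen. Copies were sought with blastn among GENCODE M21 transcripts. Levels and ratios per kilobase use all annotated exons, as planned, and the longest coding transcript as an added alternative. Results for 1 further motif and for some genes of the pathway lists are not reported here. The alternatives changed the pseudocount, minimum mean, scaling, prior variance, weights, block and libraries.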

Additional observations from a re-analysis of the deposited data

How the results depend on the processing

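No count or median of the proteasome genes changed direction under a pseudocount of 0.1, a minimum mean of 50, the same upper quartile, a robust prior variance or voom weights. Replicate numbers did not pair the libraries, since same-numbered deviations correlated at -0.13, 0.12 and 0.01. With the replicate block 12 genes were higher in mdx against control, 4 lower in Sirt6mKO/mdx against mdx and 3 higher in Sirt6mKO/mdx against control. Without a minimum mean these counts were 5, 0 and 0 (20, 10 and 13 genes at an unadjusted p under 0.05), and with one prior variance for all genes in limma they were 0, 0 and 0 (12, 6 and 4 genes); the cause was not tested. With the same total in each library, the second comparison had 24 genes lower and a median of -1.02, and the third had 0 higher, 8 lower and a median of -0.45, while the median of all genes moved to -0.58. Leaving out 1 library at a time gave 4 to 12, 0 to 7 and 0 to 3 genes, with medians of 0.48 to 0.78 in mdx against control and 0.15 to 0.30 in Sirt6mKO/mdx against control. Without the 8 genes that have near copies, added after seeing the data, 9, 3 and 3 of 35 passed. Single-gene alternatives were run for the genes that passed and the 5 immunoproteasome genes, and among these the ones that turned in sign were, against mdx, Psmb8 at -0.12 with the same total, Psmb10 (-0.44 to 0.31) and Psmb9 (-0.91 to 0.018) without 1 library, and, against control, Psmb9 at -0.57 and Psme2 at -0.45 with the same total, Psme1 at 0.026 with the same upper quartile, and Psmb9 (-0.45 to 0.48), Psme1 (-0.66 to 0.66) and Psme2 (-0.16 to 0.46) without 1 library. With 2 libraries per group and 1 read worth up to 1.86 units, small changes of low genes such as Psmb9 were not detectable.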
